A study of Mus musculus with 2 samples.

Results

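AMPA receptors are the ion channels that carry most fast excitatory transmission between cortical neurons. The genes described are the 4 pore subunits of the receptor, Gria1, Gria2, Gria3 and Gria4, and 6 auxiliary proteins that travel with it: Cacng2, Cacng3, Cacng8, Cnih2, Cnih3 and Gsg1l. These 10 genes were chosen by name, among 55450 annotated genes with a symbol. Poly(A)+ RNA had been taken from the left cerebral cortex of adult mice of the C57BL/6 substrain B6NCrl, at an age of 6 months, with 20 ng of RNA per library and tagmentation by a transposase (Nextera). There was 1 group with 2 libraries, labelled biological replicates 1 and 2, with no treatment and no second condition. The libraries have separate biosample records but the same donor record. The labels therefore do not settle whether they came from separate animals, and the spread between them may be technical. The labels call the tissue male in one field and leave the sex uncollected in another.

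Each receptor is built from pore subunits around a channel that glutamate opens. The subunit encoded by Gria2 keeps calcium out of the channel once its RNA has been edited by the enzyme from Adarb1, so the share of Gria2 bears on calcium entry. Cacng2, Cacng3 and Cacng8 encode TARPs, membrane proteins that bring the receptor to the synapse and slow its closing. Cnih2 and Cnih3 encode cornichons, which help the receptor leave the endoplasmic reticulum and prolong its currents, and Gsg1l encodes a distant relative of the TARPs that slows recovery from desensitization. Near the end of the coding region each Gria gene has a pair of alternative exons, called flip and flop, of which a mature subunit mRNA carries 1. The choice sets how fast the receptor desensitizes.

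The flip and flop exons of Gria1 and Gria2 are shown because the splice forms described further on turn on them. Flip and flop have the same length in each gene, and the flop exon lies upstream of the flip exon in all 4. They were read from the GENCODE M21 transcripts on mm10, 5′ to 3′ on the coding strand, and capitals mark the bases that differ between flip and flop of the same gene. The pairs differ at 36 positions in Gria1, 36 in Gria2, 32 in Gria3 and 31 in Gria4.
Gria1 flip (chr11:57310608-57310722, plus strand): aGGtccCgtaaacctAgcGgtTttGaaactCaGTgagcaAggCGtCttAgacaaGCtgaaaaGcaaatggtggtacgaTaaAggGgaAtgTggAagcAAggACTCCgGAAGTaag
Gria1 flop (chr11:57309769-57309883, plus strand): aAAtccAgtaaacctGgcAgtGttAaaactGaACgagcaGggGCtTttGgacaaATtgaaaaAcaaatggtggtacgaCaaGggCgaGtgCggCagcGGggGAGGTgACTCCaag
Gria2 flip (chr3:80690404-80690518, minus strand): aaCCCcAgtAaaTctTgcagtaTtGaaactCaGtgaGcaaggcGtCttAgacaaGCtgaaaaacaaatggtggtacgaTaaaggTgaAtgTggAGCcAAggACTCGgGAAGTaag
Gria2 flop (chr3:80691320-80691434, minus strand): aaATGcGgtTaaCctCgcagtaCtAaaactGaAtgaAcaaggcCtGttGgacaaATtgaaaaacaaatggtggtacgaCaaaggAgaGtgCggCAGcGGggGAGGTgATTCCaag

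In the gene tables, replicate 1 held 51876103 fragments on genes and replicate 2 held 26770991 fragments. The second transcript tables, a separate quantification of the same libraries, held 76100574 and 46367538. The tissue label was checked against marker genes. All 6 excitatory neuron markers and all 6 GABAergic interneuron markers were detected, with summed levels of 1002 and 1179 TPM for the first list and 374 and 468 TPM for the second in replicates 1 and 2. The first sum was mostly Camk2a, at 848 and 1083 TPM. Of the other excitatory markers, Slc17a7 stood at 82.7 and 37.2 TPM, Tbr1 at 22.3 and 7.70 TPM and Neurod2 at 10.7 and 7.01 TPM, so the markers of this list did not move together. TPM is a level per transcript length, on a scale with the same sum in each library, so genes of different length can be set side by side. Astrocyte markers summed to 432 and 501 TPM, oligodendrocyte markers to 2835 and 3090 TPM, and cerebellar markers to 12.7 and 14.5 TPM, with 2 of 5 cerebellar markers detected. All 5 striatal markers were detected, at a sum of 261 and 247 TPM. Of the hippocampal markers 4 of 5 were detected, at a sum of 59.3 and 64.3 TPM that was mostly Wfs1 (52.4 and 54.8 TPM). Of the thalamic markers 3 of 4 were detected, at a sum of 57 and 52.9 TPM that was mostly Tcf7l2 (47.4 and 44.5 TPM). In bulk tissue, fewer cells of a type and less RNA per cell cannot be told apart.

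All 10 genes were detected, meaning that they reached 1 TPM in each library, as did 24.9% of the 55450 genes. Their median was 44.2 TPM in replicate 1 and 29.8 TPM in replicate 2, against 12.7 and 11.7 TPM over all 13794 detected genes. Levels below are mean TPM ± SD over n = 2 libraries, and no test was possible with 1 group.

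Among the pore subunits Gria2 was highest. Gria2 (ENSMUSG00000033981.14, chromosome 3, 80681450 to 80802835) stood at 115.4 TPM in replicate 1 and 158 TPM in replicate 2 (137 ± 30.4), from 19809 and 14071 fragments. Gria3, on chromosome X (ENSMUSG00000001986.16, 41400854 to 41678601), stood at 35.05 and 46.8 TPM (40.9 ± 8.29). Gria1, the subunit most studied in synaptic potentiation (ENSMUSG00000020524.16, chromosome 11, 57011387 to 57330244), stood at 30.7 and 29.4 TPM (30.05 ± 0.891). Gria4 (ENSMUSG00000025892.16, chromosome 9, 4417896 to 4796234), a subunit enriched in some interneurons, was lowest of the 4 at 16.3 and 17.5 TPM (16.9 ± 0.813). The order Gria2, Gria3, Gria1, Gria4 held in each library, and no neighbouring pair had overlapping values.

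The pore subunits kept close proportions in the libraries. Gria2 held 58.4% of the summed TPM of the 4 genes in replicate 1 and 62.8% in replicate 2 (60.6% ± 3.11). Gria3 held 17.8% and 18.6%, Gria1 15.5% and 11.7%, and Gria4 8.27% and 6.94%. The second transcript tables gave Gria2 57.9% and 62.4%, so that the share moved by less than the spread between the libraries. Counted in fragments, with no division by length, Gria1 held 16.5% ± 3.65 and Gria4 5.21% ± 0.0768.

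**Figure D1:**
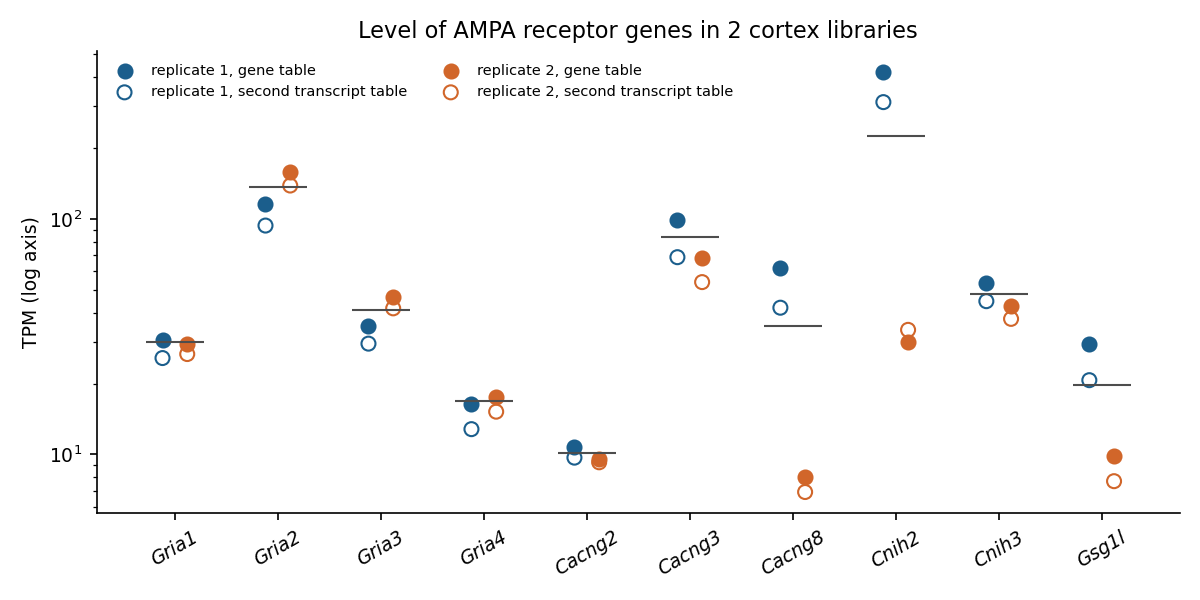
Level of each gene in TPM (log axis) in replicate 1 (blue) and replicate 2 (orange), from the gene tables (filled) and the second transcript tables (open), with the mean of the gene tables as a line. The 4 pore subunits lie close together in the libraries, whereas Cacng8 (62.0 and 8.01 TPM), Cnih2 (421 and 30.1 TPM) and Gsg1l (29.4 and 9.83 TPM) are far apart.

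Of the TARPs, Cacng3 was highest in both libraries. Cacng3 (ENSMUSG00000066189.9, chromosome 7, 122670492 to 122769393) stood at 98.9 and 68.0 TPM (83.5 ± 21.9). Cacng2, which encodes stargazin, the first TARP to be described (ENSMUSG00000019146.2, chromosome 15, 77991748 to 78120028), was the lowest of all 10 genes by mean at 10.8 and 9.58 TPM (10.2 ± 0.841). Its level was nearly the same in the libraries. Cacng8, the TARP best known from hippocampus and forebrain (ENSMUSG00000053395.15, chromosome 7, 3390683 to 3415648), stood at 62.0 TPM in replicate 1 and 8.01 TPM in replicate 2, from 3254 and 229 fragments. It was thus the fourth highest of the 10 genes in replicate 1 and the lowest in replicate 2, and its SD of 38.1 exceeded its mean of 34.98.

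Of the 10 genes, the cornichon gene Cnih2 differed most between the libraries. Cnih2 (ENSMUSG00000024873.7, chromosome 19, 5092868 to 5098521) was the highest of the 10 genes in replicate 1 at 421 TPM, where it ranked 366th of 13794 detected genes, and stood at 30.1 TPM and rank 3982 in replicate 2. Cnih3 (ENSMUSG00000026514.14, chromosome 1, 181352628 to 181460641), its close relative, stood at 53.3 and 42.7 TPM (48.0 ± 7.51). Cnih2 was therefore above Cnih3 in replicate 1 and below it in replicate 2, with 88.8% and 41.4% of the summed TPM of the pair. Gsg1l (ENSMUSG00000046182.8, chromosome 7, 125878420 to 126082411), for which a single transcript is annotated, stood at 29.4 and 9.83 TPM (19.6 ± 13.9).

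By mean level the order was Cnih2, Gria2, Cacng3, Cnih3, Gria3, Cacng8, Gria1, Gsg1l, Gria4 and Cacng2. Of the 9 neighbouring pairs in that order, 6 had overlapping values. The 3 pairs that did not overlap were Gria2 above Cacng3, Cacng3 above Cnih3, and Gria4 above Cacng2. The summed level of the 4 pore subunits was 197 and 252 TPM, and that of the 6 auxiliary genes 676 and 168 TPM. Without Cnih2 the auxiliary genes summed to 254 and 138 TPM.

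**Figure D2:**
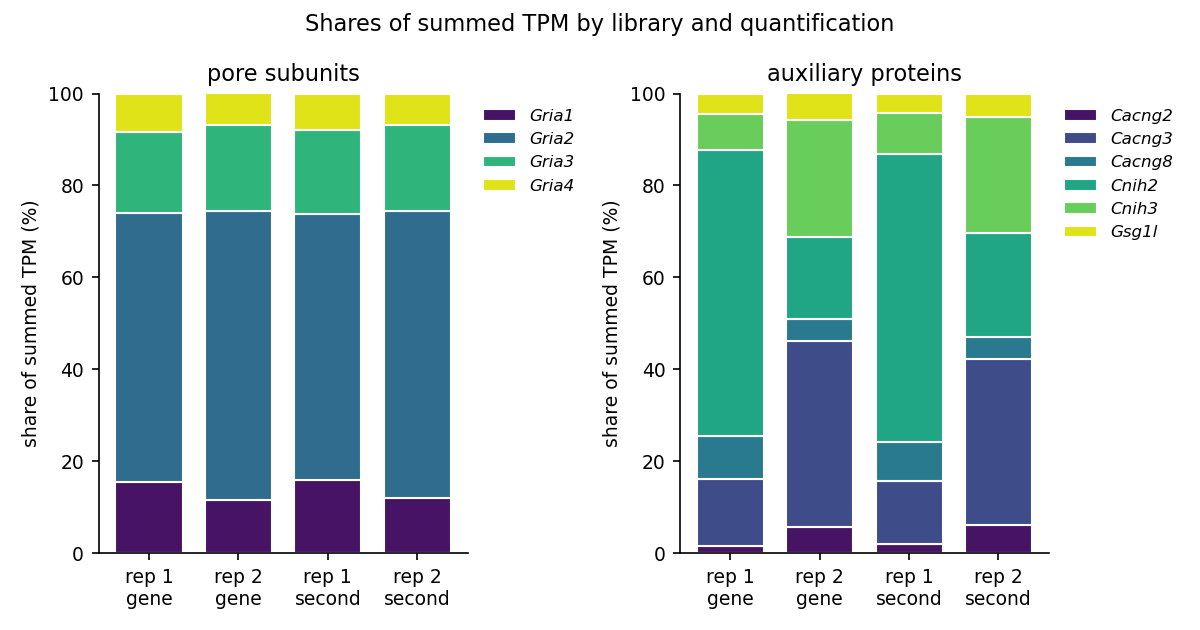
Share of the summed TPM held by each pore subunit (left) and each auxiliary gene (right), per library, from the gene tables and the second transcript tables. Gria2 takes 58.4% and 62.8% of the pore subunits, and Cnih2 takes 62.3% of the auxiliary genes in replicate 1 and 17.9% in replicate 2.

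The libraries were next compared gene by gene, by the log2 ratio of replicate 2 over replicate 1 in CPM, fragment counts divided by library size, with TMM-scaled library sizes, with a pseudocount of 0.5 CPM. Intervals are 95% Clopper-Pearson intervals of the ratio without the pseudocount, so a printed ratio need not lie at the middle of its interval. They cover counting error only. The fragments carried no molecular identifiers, so copies of the same molecule could not be told apart. With 1 library on each side the ratio describes these libraries and has no replicate check. Of the 14647 genes with a mean of at least 1 CPM, 17.2% were at least 1.5-fold lower in replicate 2 and 3.22% at least 1.5-fold higher, 20.5% in all. Of the 10 AMPA receptor genes, 4 were at least 1.5-fold lower (Cacng3, Cacng8, Cnih2 and Gsg1l) and 0 higher. Under scaling by total counts, which moves the median log2 ratio of all genes from -0.04 to 0.09, 14.1% of genes were lower and 5.67% higher, a split of 2064 lower and 830 higher in place of 2525 and 471. Cacng3 then fell inside the 1.5-fold limit.

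The 4 that differed were all auxiliary genes. Cnih2 was 14.7 times as high in replicate 1, with 19799 and 749 fragments (log2 ratio -3.87, interval -4.01 to -3.79). Cacng8 was 7.61 times as high in replicate 1 (-2.93, -3.20 to -2.81) and Gsg1l 3.25 times, with 4448 and 762 fragments (-1.70, -1.83 to -1.61). Cacng3, with 7146 and 2677 fragments, lay just at the limit at -0.59 (-0.66 to -0.53). The second transcript tables gave -3.40 for Cnih2, -2.72 for Cacng8, -1.65 for Gsg1l and -0.52 for Cacng3, so the first 3 stayed beyond 1.5-fold and Cacng3 did not. Of the 6 excitatory neuron markers, 3 were also at least 1.5-fold lower in replicate 2: Tbr1 (-1.69), Slc17a7 (-1.29) and Neurod2 (-0.72). Camk2a and Neurod6 had ratios of 0.09 and 0.06. The median ratio was -0.33 for this list and 0.26 for the GABAergic interneuron list. The interneuron markers did not move together either. Slc32a1 (-0.84) was at least 1.5-fold lower in replicate 2 and Pvalb stood at -0.27. Gad1 (0.28), Gad2 (0.35), Sst (0.37) and Vip (0.24) had ratios above 0. The part of cell composition in the differences of the 4 genes was not tested.

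The pore subunits and the other auxiliary genes lay inside 1.5-fold. Gria2 (0.33, 0.30 to 0.36), Gria3 (0.33, 0.28 to 0.39) and Gria4 (0.20, 0.10 to 0.31) had higher values in replicate 2. Gria1 (-0.22, -0.28 to -0.16), Cacng2 (-0.31, -0.42 to -0.20) and Cnih3 (-0.34, -0.42 to -0.27) had lower values there. The median of the 10 genes was -0.32 and that of all 14647 genes -0.04.

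GC content, the share of G and C bases in the expressed transcripts, moved with these ratios. Across all genes the ratio was lower at higher GC content (Spearman rho -0.307 across 14646 genes of the same 2 libraries, which do not stand for separate samples). The genes past 1.5-fold lower made up 7.32% of those under 45% GC, 11.3% from 45% to 50%, 15.6% from 50% to 55%, 27.2% from 55% to 60%, and 51% of the 749 genes at 60% or more. Among the members GC content was 65.4% in Cacng8, 62.3% in Cnih2 and 56.9% in Gsg1l. It was 54.2% in Cnih3, 53.8% in Cacng3, 51.2% in Cacng2 and 48.6% in Gria1, and 43.6% or less in Gria2, Gria3 and Gria4. The 3 genes of highest GC content were the 3 with the lowest ratios, and the 3 of lowest GC content were the 3 with a ratio above 0. The ratios of the first 3 lay below the medians of genes of like composition: genes within 2 percentage points of GC content had a median of -0.57 around Cnih2, -0.91 around Cacng8 and -0.17 around Gsg1l. Of those genes, 48.8% around Cnih2, 61.9% around Cacng8 and 25.4% around Gsg1l were at least 1.5-fold lower in replicate 2. The trends on GC content and length were then removed across all genes. The ratios were -3.44 for Cnih2, -2.25 for Cacng8, -1.48 for Gsg1l and -0.55 for Cacng3. Thus 3 of the 10 stayed beyond 1.5-fold, all lower, beside 15.2% lower and 3.69% higher of the 14646 genes.

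**Figure D3:**
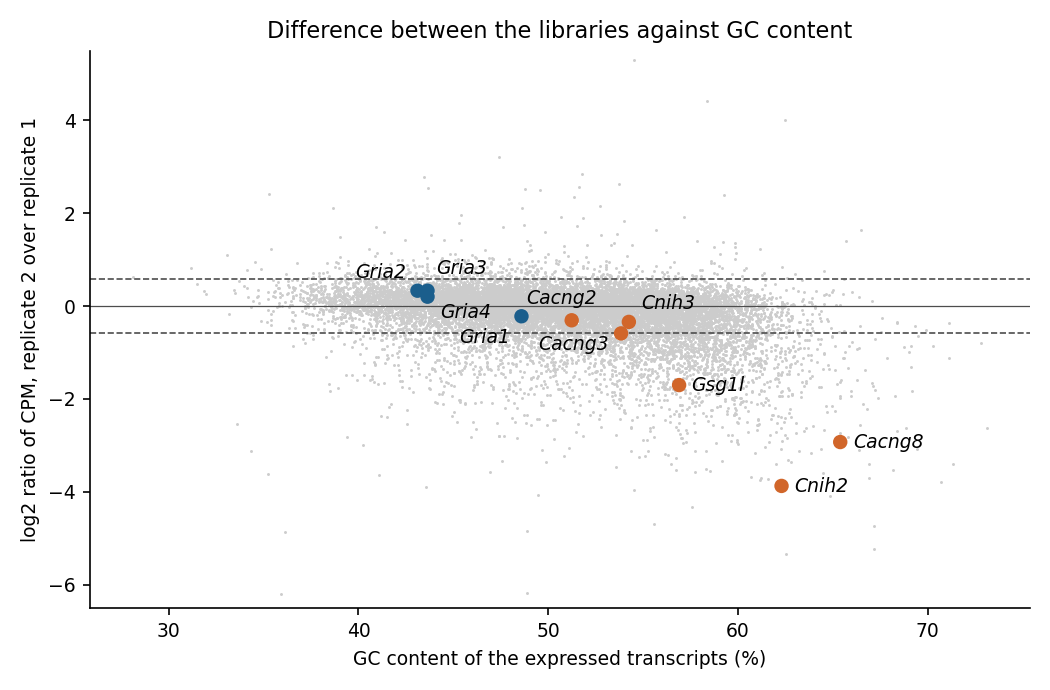
Log2 ratio of CPM, replicate 2 over replicate 1, against the GC content of the expressed transcripts, for 14646 genes (grey), the pore subunits (blue) and the auxiliary genes (orange), with dashed lines at 1.5-fold. Gria2, Gria3 and Gria4 lie near 43% GC and above 0, and Cacng8 and Cnih2 lie above 60% GC and far below the lines.

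The coding stretch of 90 bases with most G and C inside 1 exon is printed for the 3 genes of lowest ratio, Cacng8, Gsg1l and Cnih2, and for Gria2, to show how far their composition differs. Capitals mark G and C, which make up 81 of the 90 bases in Cacng8, 74 in Gsg1l, 53 in Cnih2 and 51 in Gria2. The stretch of Cnih2, the gene with the lowest ratio, was thus close to that of Gria2, and Gria3 also had 53.
Cacng8 (chr7:3415291-3415380, plus strand): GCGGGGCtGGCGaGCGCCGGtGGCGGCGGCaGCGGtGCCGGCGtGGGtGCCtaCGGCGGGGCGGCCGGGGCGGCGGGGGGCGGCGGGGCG
Gsg1l (chr7:126081952-126082041, minus strand): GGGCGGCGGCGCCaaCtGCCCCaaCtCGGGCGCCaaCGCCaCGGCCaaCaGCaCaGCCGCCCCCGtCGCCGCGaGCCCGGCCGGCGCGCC
Cnih2 (chr19:5093920-5094009, minus strand): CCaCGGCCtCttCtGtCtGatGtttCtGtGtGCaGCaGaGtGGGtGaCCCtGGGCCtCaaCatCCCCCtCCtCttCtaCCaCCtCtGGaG
Gria2 (chr3:80692291-80692380, minus strand): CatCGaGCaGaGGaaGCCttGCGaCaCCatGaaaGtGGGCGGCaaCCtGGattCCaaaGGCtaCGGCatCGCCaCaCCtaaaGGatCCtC
Over the whole coding region the GC content was 66.7% in Cacng8, 62.1% in Gsg1l, 54.0% in Cnih2 and 44.6% in Gria2. The coding region of Cnih2 was thus less rich than its whole transcript at 62.3%. Whole transcripts of Gria2 stood at 43.1%, so Cnih2 and Gria2 were close only in the 90-base stretch. The part of composition in these ratios was not tested.

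Several of the genes overlap others in the annotation. Cnih2 shares 14 exonic bases with the span of Yif1a on the opposite strand, which held 1239 and 900 fragments. Cacng2 shares 323 exonic bases with the span of the antisense gene A730060N03Rik, with 127 and 66.8 fragments, and without stated use of strand these cannot be told apart from Cacng2. The other overlapping genes held 0 fragments in both libraries, among them the antisense gene Gm44151, whose span holds 911 exonic bases of Cacng8, apart from 1 fragment of Gm44874 within Gsg1l in replicate 2. Of the 31-base words in the annotated transcripts of each member, 97.4% (Cacng8) to 100% (Cacng3 and Cnih2) occurred in no other gene.

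The splice forms were described by the isoform percent, the share of a gene's TPM given to each annotated transcript. Of the 7 members with at least 2 transcripts and a gene TPM of at least 10 in both libraries, all 7 had the same main transcript in both libraries, as did 87.8% of the 6364 genes that met these limits. In 5 of the 7 the second transcript tables named the same main transcript in both libraries as well, against 79.7% of those genes. The exceptions were Gria1 and Cnih3. Cacng8 also has several transcripts but was left out by its level of 8.01 TPM in replicate 2. Its main transcript in the first transcript tables was Cacng8-201 in replicate 1 and Cacng8-202 in replicate 2.

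Most of the TPM of Gria2 was given to its flip transcript. Gria2-202, which carries the flip exon, held 88.6% and 88.2% of the gene's TPM (88.4% ± 0.290), and Gria2-201, which carries flop, held 6.87% and 7.82%. Among transcripts with exactly 1 of the exons, flip made up 92.8% and 91.9% in the first transcript tables and 92.8% and 91.6% in the second. The 2 transcripts also differ in their last exon, which is 920 bases long in Gria2-202 and 7265 bases in Gria2-201. Since no flop transcript with a short end is annotated, the exon choice and the length of the end cannot be told apart in these shares. Only 25 of the 3996 31-base words of Gria2-202 occur in no other transcript, against 6400 of 10341 for Gria2-201. Gria2-203, which carries both exons and is annotated for nonsense-mediated decay, held 0.87% and 0.17% in the first tables and 12.8% and 6.37% in the second.

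Gria3 also had more flip than flop in the first tables. Gria3-201 (flip) held 62.9% and 71.8% of the gene's TPM and Gria3-202 (flop) 28.7% and 22.0%. In the second transcript tables the flip transcript held 43.3% and 49.4% and the flop transcript 42.6% and 27.8%, and Gria3-206, with both exons and annotated for nonsense-mediated decay, took 7.71% and 17.5%. Flip was above flop in both libraries by both quantifications, but in replicate 1 the second tables put them within 1 percentage point of each other. As in Gria2, the forms differ in the last exon, here 2262 bases for flip and 246 for flop. The exon choice and the length of the end therefore cannot be told apart in these shares either. Only 122 of the 5162 31-base words of Gria3-201 occur in no other transcript, and 0 of the 3026 of Gria3-202.

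In Gria1 the quantifications disagreed on the main form. Gria1-202 (flop) held 56.7% and 51.2% in the first tables and Gria1-201 (flip) 43.3% and 47.4%. In the second tables flip held 55.7% and 61.5% and flop 37.4% and 31.5%. These transcripts differ in the alternative exon and in their start, and their last exons are 2802 and 2801 bases long. Only 147 31-base words of Gria1-201 and 134 of Gria1-202 occur in no other transcript, of 5516 and 5369. Which form led in Gria1 is not settled by these tables.

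**Figure D4:**
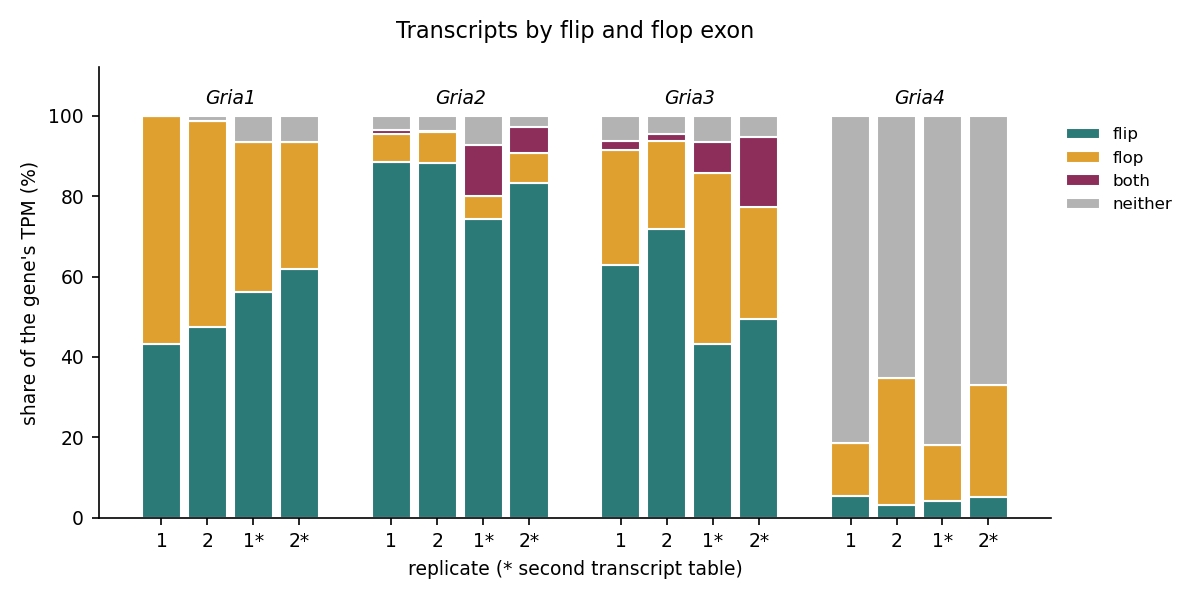
Share of each Gria gene's TPM held by transcripts with the flip exon, the flop exon, both or neither, in replicates 1 and 2, from the first transcript tables and (asterisk) the second. Most of Gria2 is given to the flip transcript in every bar, which also differs from the flop transcript in its last exon. The larger form of Gria1 depends on the table, and most of Gria4 (81.3% and 65.3% in the first tables) has neither exon.

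Gria4 differed from the other pore subunits in its main form. Gria4-203, a transcript that stops before the pore, held 81.3% and 65.4% of the gene's TPM (73.3% ± 11.3), and 81.9% and 66.9% in the second tables. It shares 10 exons with Gria4-201 and lacks the other 7 of its 17 exons, the flop exon among them. It has no flip exon either, and codes for 1299 bases in place of 2706. Its last exon of 590 bases (chr9:4478263-4478852, minus strand) lies inside the intron that follows the last shared exon, 1325 bases beyond it. The end of its coding region is printed to show where it leaves the long form: lower case marks the last 24 bases of the shared exon, and capitals the 30 coding bases and the stop codon that are its own.
Gria4-203 (5′ to 3′): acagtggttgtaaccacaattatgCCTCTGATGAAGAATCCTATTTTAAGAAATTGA

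The short form rested on 1160.5 of 1802 Gria4 fragments in replicate 1 and 516 of 1172 in replicate 2, and 590 of its 2308 31-base words are found in no other transcript. Among the full-length transcripts flop was above flip: the flop transcripts held 13.3% and 31.6% of the gene's TPM and the flip transcript Gria4-202 held 5.33% and 3.09%. The second tables gave flop 13.9% and 27.8% and flip 4.17% and 5.30%. In fragments of the first tables, flop held 461 and 598 and flip 180.4 and 57.4, so the order rested on few fragments for flip.

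**Figure D5:**
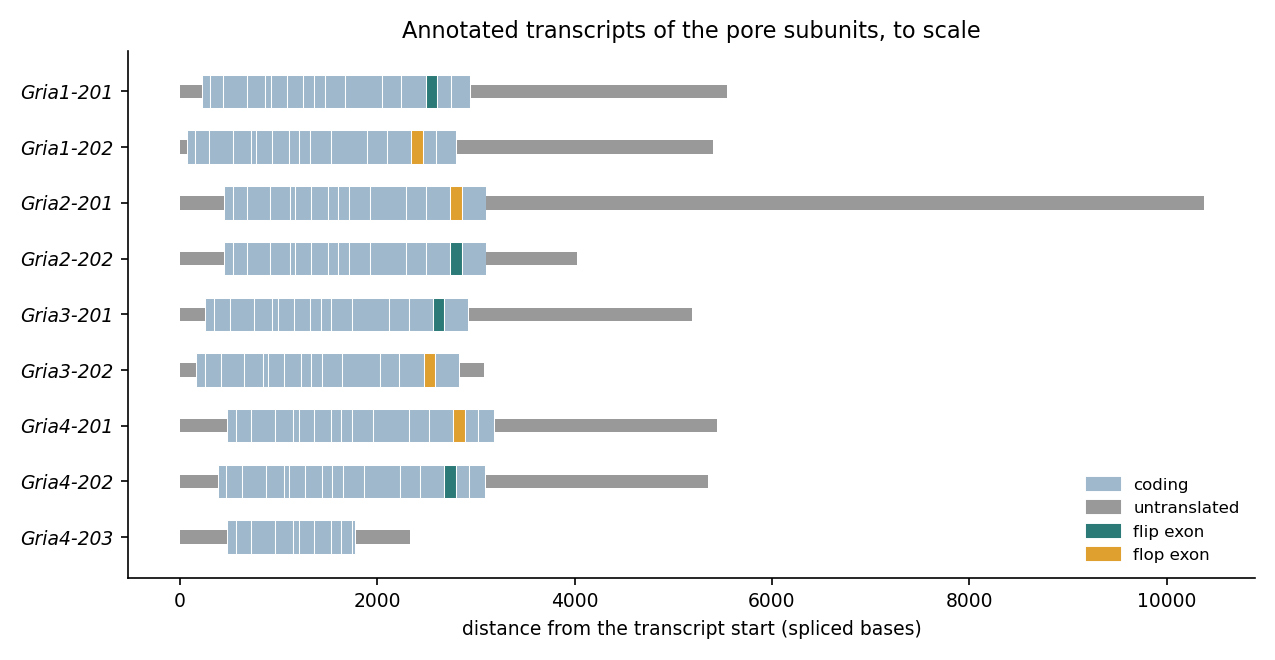
Annotated transcripts of the pore subunits drawn to scale along the spliced RNA, with coding exons (blue), untranslated parts (grey) and the flip (green) and flop (yellow) exons. Gria4-203 ends before the alternative exons, and the flip and flop transcripts of Gria2 and of Gria3 also differ in the length of the last exon.

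The auxiliary genes had simpler forms, and several shares rested on short or overlapping annotations. Cacng3-201, the full coding transcript, held 58.2% and 63.2% of the gene's TPM. Cacng3-203 and Cacng3-202, both annotated as incomplete and each lacking 1 inner exon, held 25.0% and 25.9%, and 16.8% and 10.9%. Because they are short, these shares rested on few fragments: 598 and 230 for Cacng3-203, and 501 and 120 for Cacng3-202, of 7146 and 2677. The second tables gave 64.2% and 68.1% to Cacng3-201.

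In Cacng8 the forms could not be resolved. Cacng8-201 and Cacng8-202 both code for 1269 bases, from 4 and 6 exons. They held 62.5% and 29.9% in replicate 1 and 40.5% and 47.6% in replicate 2, whereas the second tables gave Cacng8-202 82.6% and 91.9%. Cacng8-201 has no 31-base word of its own. Another transcript, Cacng8-203, held 7.60% and 11.9% from 70.3 and 8 fragments.

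Cnih2-201 held 97.4% and 99.5% of its gene's TPM, and Cnih2-202, annotated for nonsense-mediated decay, the rest at 2.60% and 0.52%. The difference of Cnih2 between the libraries thus lay in the main coding transcript, with 19444 and 746 fragments. In Cnih3 the quantifications disagreed. Cnih3-201 held 68.7% and 85.2% and Cnih3-202 23.9% and 11.4% in the first tables, against 39.2% and 61.5%, and 46.8% and 30.8%, in the second. Cnih3-202 keeps 57 more coding bases at the end of an inner exon, which are printed in capitals after the 48 bases that both forms share.
Cnih3-202 exon (chr1:181409629-181409733, plus strand): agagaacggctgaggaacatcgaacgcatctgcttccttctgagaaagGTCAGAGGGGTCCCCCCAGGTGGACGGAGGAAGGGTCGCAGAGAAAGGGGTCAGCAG

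The other genes of the AMPA receptor pathway were taken from a list of 54, all of them measured and 52 detected in both libraries. Their median log2 ratio between the libraries was -0.18, against -0.04 over all genes, with 19 at least 1.5-fold lower in replicate 2, 0 higher and 35 inside the limit, beside 17.2% and 3.22% of all genes. By group, 7 of 14 other auxiliary subunits were lower, 4 of 14 scaffold and trafficking genes, 3 of 8 genes of extracellular clustering, 3 of 8 kinase and phosphatase genes and 2 of 3 RNA editing genes. None of the 7 genes of receptor assembly and lipid modification passed the limit.

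Signalling enzymes led this list. Camk2a, a kinase that phosphorylates the receptor during potentiation, stood at 965 ± 166 TPM, and its partner Camk2b at 187 ± 57.7. The calcineurin subunit genes Ppp3ca and Ppp3r1, of a phosphatase that acts in synaptic depression, stood at 509 ± 104 and 205 ± 26.1 TPM. The protein kinase A gene Prkaca stood at 142 ± 90.4 TPM, with 206 in replicate 1 and 77.8 in replicate 2. Also among the 8 highest were Olfm1, a secreted protein that binds the receptor (488 ± 208 TPM), Nsf, an ATPase that binds the subunit from Gria2 (167 ± 37.7), and Cnih1, a widely expressed relative of Cnih2 and Cnih3 (158 ± 0.163). Cnih1 stood at 158 TPM in each library (log2 ratio -0.13), while Cnih2 differed 14.7-fold. The GC content was 44.9% in Cnih1 and 62.3% in Cnih2, and its part in this contrast was not tested. The 2 lowest were Shisa8 at 1.15 ± 0.552 TPM and Shisa6 at 1.37 ± 0.721, members of a family of auxiliary subunits.

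The 6 genes of the list that differed most between the libraries were all lower in replicate 2. The scaffold gene Grasp stood at 45.05 and 4.34 TPM (log2 ratio -3.39, interval -3.73 to -3.28), and the neuronal pentraxin receptor gene Nptxr, which clusters receptors from outside the cell, at 166 and 40.1 TPM (-2.19, -2.24 to -2.14). Vwc2 followed at -2.03, Prkaca at -1.52, the pentraxin gene Nptx2 at -1.38 and Shisa8 at -1.33. Their GC content was 62.0% in Grasp, 59.5% in Nptxr, 58.3% in Nptx2 and 65.8% in Shisa8, but 53.8% in Vwc2 and 54.9% in Prkaca. With the GC content and length trends removed the ratios were -2.93 for Grasp, -1.80 for Nptxr, -1.99 for Vwc2, -1.44 for Prkaca, -1.14 for Nptx2 and -0.57 for Shisa8, the last of which then lay inside 1.5-fold.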

How the data were processed

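Each of the 2 libraries had 3 deposited tables, on the mm10 build and the GENCODE M21 gene models, per the text notes that the authors deposited. The gene tables and the first transcript tables held expected counts, TPM and the percent of a gene's TPM per transcript, which the authors derived from transcriptome alignments. The second transcript tables held estimated counts and TPM made by the authors from the read files. The quantifiers, their versions and the strand setting were not given in the sources used here. Counts were deposited without normalization, and the authors' TPM values had an equal sum in both libraries. The 10 genes were found by symbol and joined by gene identifier.

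Expected counts were rounded for scaling by TMM (edgeR 4.0.16, R 4.3.3). Log2 ratios used a pseudocount of 0.5 CPM over genes whose CPM averaged 1 or more. Clopper-Pearson intervals were computed without the pseudocount, and the computation was tested on simulated data. The simulated counts held counting error only, so that check says nothing of other differences between the libraries. With 1 group no test and no p-value was possible. GC content was weighted by transcript TPM, and trends were removed by lowess at a fraction of 0.3 (statsmodels 0.14.6). Flip exons were recognised by the serine codon, and flop exons by the asparagine codon, at the position where the forms are known to differ.

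Named were all 10 genes, their 2 leading transcripts and those of at least 10 percent, and of the pathway list the 8 highest, the 2 lowest and the 6 furthest past 1.5-fold. The genes and lists were chosen with earlier results of these data known. No gene was named for likeness of pattern, since with 2 libraries none can be measured.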

Additional observations from a re-analysis of the deposited data

How the results depend on the processing

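No paired analysis was possible because there was 1 group and no comparison between groups. Alternatives that kept both libraries gave 136 values. Of these, 104 stayed within the spread between the libraries, the counting interval or 1.5 times a count, and 32 moved further. A reversal was looked for only in the ratios of the 4 genes past 1.5-fold, and 0 were found. Other values could not be called reversed. Filters on low counts leave a gene's own ratio unchanged, so those ratios stayed by construction. The spread between the libraries was wide for Cnih2, Cacng8 and Gsg1l. A further 66 values left out 1 library. A mean of 2 libraries always lies within 1 SD of each of them, so these values say nothing of stability. All 10 genes were detected under each alternative. The mean share of Gria2 among the pore subunits was 60.6%, against 60.2% in the second quantification and 59.9% in fragments. In single libraries the share ranged from 57.9% to 62.8% over these quantities. The median share of the main transcript over 8 genes, 67.2%, was 59.0% in the second quantification, and the cause was not tested. The count of the 10 genes lower in replicate 2 was 3 in place of 4, without Cacng3, under several alternatives. These were total count scaling, relative log expression scaling, a pseudocount of 2, the second quantification and removal of the GC content and length trends. Of all genes, 14.1% to 17.0% were lower under these alternatives. Each of the 10 ratios kept its sign in all 8 alternatives, from -3.89 to -3.40 for Cnih2 and from -2.99 to -2.25 for Cacng8. A filter on low counts or another pseudocount cannot change a sign. Only the other scalings, the second quantification and the removal of trends could have done so. The number of all genes higher in replicate 2 was 471, against 830 by total counts, 251 with a pseudocount of 2 and 258 among genes averaging 5 CPM or more. The share of Cnih2 among the auxiliary genes was 40.1% ± 31.4, with 62.3% without replicate 2 and 17.9% without replicate 1. Cacng8 held 3254 fragments in replicate 1 and 229 in replicate 2, and the quantifications differed on its forms in both. Cacng8-201 had 62.5% and 40.5% in the first tables, and 8.43% and 0% in the second. It has no 31-base word of its own. The cause was not tested.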
